A study of Sus scrofa with 13 samples.

Results

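Hatching was compared between pig embryos produced by in vitro fertilisation (IVF) and pig embryos developed in vivo, and the measured quantity is how far the hatching change of each gene differed between these origins. The hatching change is the log2 ratio of hatched to unhatched blastocysts, and the difference is the IVF change minus the in vivo change. All genes that passed a filter on low counts were tested, 15528 of the 28232 in the table, in the 10 blastocyst and hatched blastocyst libraries of the 13 in the series. Genes with an adjusted p under 0.05 (edgeR) were called, and 732 of 15528 were (4.71%).

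The 4 groups were IVF hatched blastocysts and IVF blastocysts (3 libraries each), and in vivo hatched blastocysts and in vivo blastocysts (2 libraries each). Every library was messenger RNA from a pool of Sus scrofa embryos. The sources used here do not give the breed, the age and treatment of the donors, the culture medium, the day of collection or the number of embryos in a pool. The 3 remaining libraries, from IVF 4-cell embryos, were used only in an alternative fit.

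A blastocyst holds an outer epithelium, the trophectoderm, around an inner cell mass, which gives rise to the epiblast and to the hypoblast, the layer that later lines the yolk sac. The trophectoderm pumps ions and water into the cavity, the embryo expands, and it leaves the zona pellucida, the glycoprotein coat it inherited from the egg. In the pig, hatching is followed by growth and elongation of the trophectoderm, by secretion of oestrogen, and by the spread of the hypoblast.

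Total counts were between 35110201 and 39273867 over the 10 libraries. Of the in vivo hatched libraries, 1 has a column heading with no number and is referred to as unnumbered. Genes of the mitochondrial genome held 0.623% to 1.01% of the counts in IVF hatched blastocysts, 0.913% to 1.12% in IVF blastocysts, 1.55% (unnumbered) and 6.9% (library 2) in in vivo hatched blastocysts, and 3.79% and 3.56% in in vivo blastocysts. The labels do not say whether libraries of a group came from separate collections, so the p-values rest on library-to-library spread, some of which could be technical. In pooled embryos, fewer cells of a type and less RNA per cell cannot be told apart.

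The hatching change differed between origins mainly in genes that changed in the in vivo embryos and had small IVF estimates. The difference lay above 0 in 433 genes (2.79% of those tested) and below 0 in 299 (1.93%). Over all genes, in vivo hatching had 1080 genes called higher (6.96%) and 1148 called lower (7.39%), while IVF hatching had 0 called higher (0%) and 7 called lower (0.0451%). At an unadjusted p under 0.05 the IVF hatching change had 594 genes, the in vivo change 4735 and the difference 3403. With DESeq2 in place of edgeR, 51 genes were called in IVF hatching.

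Genes above 0 had a median IVF change of 0.07 on the log2 scale (quartiles -0.14 and 0.34), against a median in vivo change of -2.25 (quartiles -3.62 and -1.63). Of these 433 genes, 428 were called lower in in vivo hatching and 5 in neither origin. Genes below 0 had a median IVF change of -0.09 (quartiles -0.42 and 0.12), against 2.34 in vivo (quartiles 1.74 and 3.62). Of these 299 genes, 295 were called higher in in vivo hatching, 1 was called in IVF hatching and 3 in neither. The IVF change was within 1 log2 unit of 0 in 400 of the 433 and in 265 of the 299. These medians describe genes chosen by the same contrast and carry no test.

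**Figure D1:**
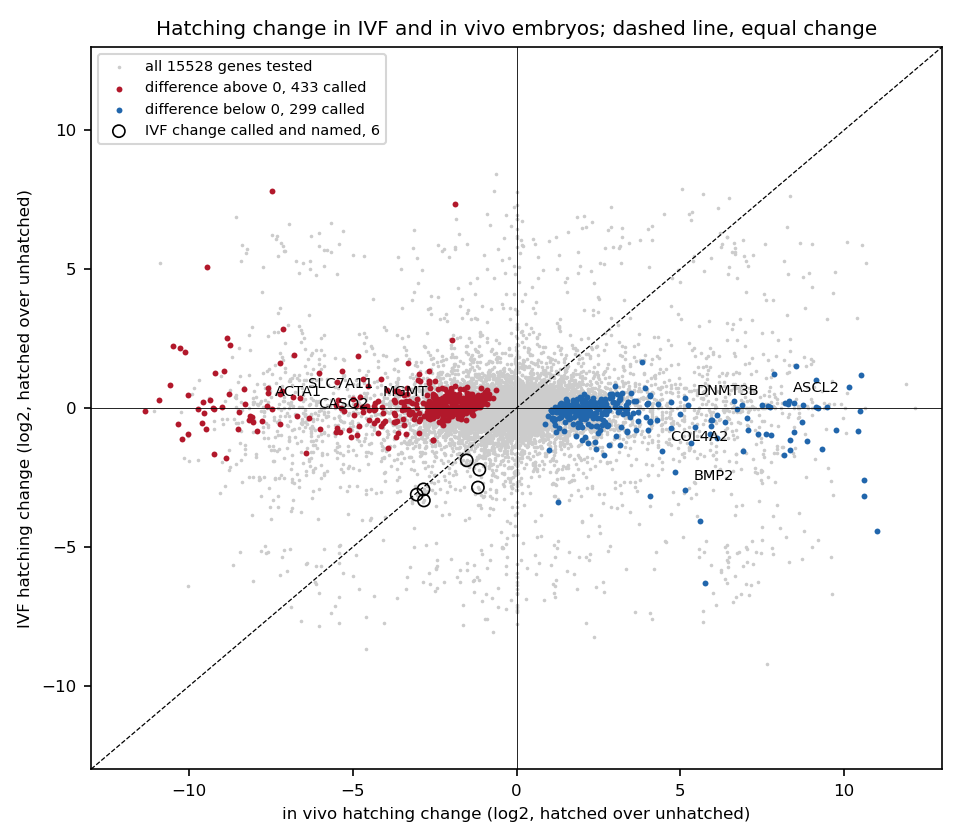
Each point is 1 of 15528 genes, with its in vivo hatching change on the x axis and its IVF hatching change on the y axis (log2, edgeR fit). The 433 genes called above 0 (red) lie left of 0 and the 299 called below 0 (blue) right of it. Of these, 400 and 265 lie within 1 log2 unit of the horizontal line of no IVF change, and some of the others lie far from it. The 6 circled genes were called in IVF hatching and are named in the text. Fitted changes of genes with a group at or near 0 counts depend on the prior count and have no exact size.

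Over the called genes on each side, the median level of every IVF library lay between those of the in vivo stages. For genes above 0, the median level relative to each gene's mean over the 10 libraries was 0.16 to 0.34 log2 units in IVF hatched, 0.12 to 0.23 in IVF unhatched, -1.43 and -1.62 in in vivo hatched and 0.85 and 0.74 in in vivo unhatched libraries. For genes below 0 it was -0.06 to 0.12 in IVF hatched, 0.10 to 0.16 in IVF unhatched, 0.87 and 1.24 in in vivo hatched and -1.31 and -1.15 in in vivo unhatched libraries. Taking the mean of the in vivo blastocysts as 0 and that of the in vivo hatched blastocysts as 1, the mean of the 6 IVF libraries had a median position of 0.28 for genes above 0 and of 0.60 for genes below 0. All 6 IVF libraries lay between the in vivo means in 198 of the 433 and 155 of the 299 genes.

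**Figure D2:**
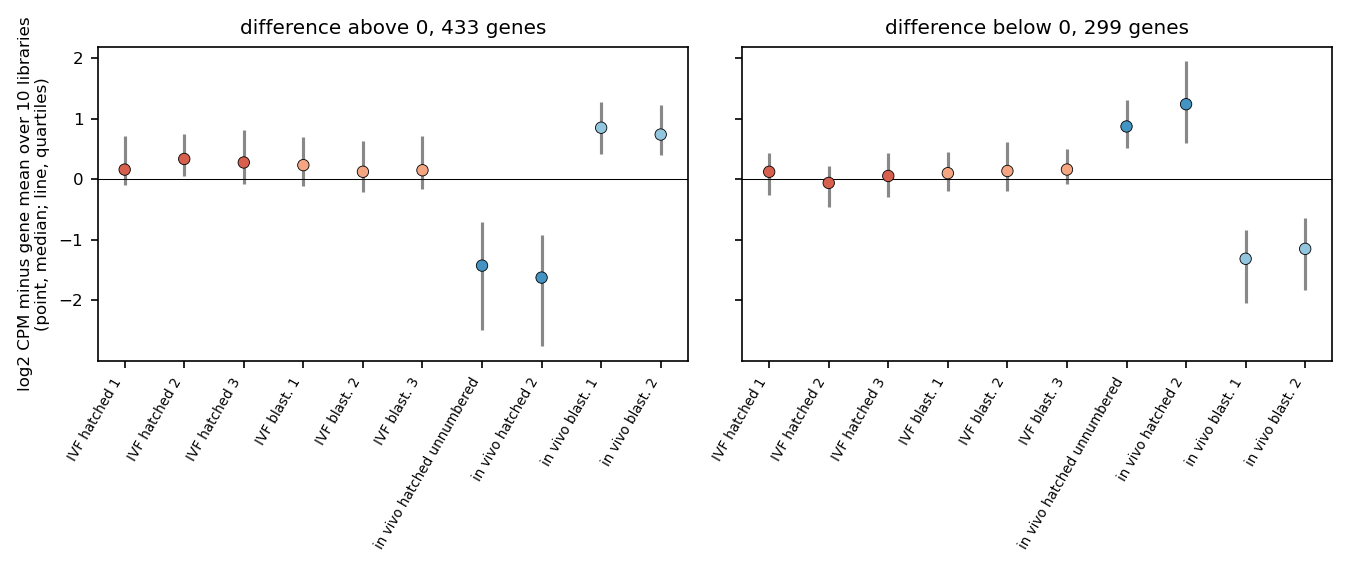
Each point is the median over the called genes of log2 CPM minus the gene's mean over the 10 libraries, and the line spans the quartiles; libraries run from IVF hatched to in vivo blastocysts on the x axis. The 6 IVF libraries lie between -0.06 and 0.34 in both panels, and the in vivo hatched libraries lie on the other side of 0 from the in vivo blastocysts.

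The called genes were also compared between origins at each stage. Over all 15528 genes, IVF minus in vivo was called in 1839 at the hatched stage and in 1681 at the unhatched stage. Among genes above 0, IVF minus in vivo was called in 304 at the hatched stage and in 153 at the unhatched stage, 53 of them at both. The median gap was 1.69 log2 units between hatched blastocysts and -0.64 between unhatched blastocysts. Among genes below 0, it was called in 128 at the hatched stage and in 173 at the unhatched stage, 24 of them at both, with median gaps of -0.94 and 1.38. These contrasts use the same libraries as the difference and are not independent of it. Long non-coding RNAs made up 28 of the 433 and 3 of the 299 called genes, against 8.62% of all genes tested. On the X chromosome, 33 of 563 tested genes were called (5.86%), near the 4.71% of all genes.

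Genes above 0 included MGMT, MGST1 and GSTA4, genes of DNA repair and detoxification that fell in in vivo hatching and were not called in IVF hatching. MGMT, which removes alkyl groups from guanine in DNA (Sscrofa11.1 chromosome 14, 138502005 to 138771543), had 566, 672 and 495 CPM in IVF hatched blastocysts and 642, 529 and 489.9 in IVF blastocysts, against 19.8 and 20.4 in in vivo hatched blastocysts and 427 and 391 in in vivo blastocysts. The in vivo hatched libraries stood far below every other library, and the IVF stages overlapped. The difference was 4.41 ± 0.30 (SE; adjusted p = 0.000115), the smallest adjusted p of all genes. MGST1, a membrane glutathione transferase, had 370.2, 288 and 376 CPM in IVF hatched and 432, 428 and 369 in IVF unhatched blastocysts, against 20.2 and 17.1 in in vivo hatched and 173 and 147 in in vivo unhatched blastocysts (difference 2.85 ± 0.29, adjusted p = 0.00153). GSTA4, a transferase for products of lipid peroxidation, had 86.0, 99.8 and 49.2 CPM in IVF hatched and 47.6, 35.0 and 44.2 in IVF unhatched blastocysts, against 9.89 and 8.47 in in vivo hatched and 71.9 and 46.3 in in vivo unhatched blastocysts. Its library ranges were apart in both origins, higher after hatching in IVF embryos and lower in in vivo embryos (difference 3.58 ± 0.46, adjusted p = 0.00343).

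Of 40 tested antioxidant genes and targets of NRF2, the transcription factor that responds to oxidants, 11 were called above 0 and 0 below 0, beside 2.79% and 1.93% of all genes. Their median difference was 0.96, with medians of 0.23 in IVF and -0.93 in in vivo hatching, while the median difference of all genes was -0.005. The all-gene shares of 2.79% above 0 and 1.93% below 0 also apply to the list counts that follow. The other 9 called members were FTH1, the ferritin heavy chain (2.78), NQO1, a quinone reductase (4.93), the sulfiredoxin SRXN1 (2.29), the glutathione peroxidase GPX1 (2.11), the glutathione synthetase GSS (1.47), the peroxiredoxins PRDX2 (1.46) and PRDX3 (1.63), and TALDO1 (1.74) and ME1 (2.42), which belong to routes that supply NADPH. NQO1 averaged 25.1 ± 6.56 CPM in IVF hatched and 8.19 ± 2.17 in IVF unhatched blastocysts, and 0.797 ± 0.0347 in in vivo hatched and 7.98 ± 7.14 in in vivo unhatched blastocysts (SD).

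PHGDH and SLC7A11, genes of serine synthesis and cystine import, fell in in vivo hatching and were not called in IVF hatching. PHGDH, the enzyme that opens serine synthesis from a glycolytic intermediate, had 229, 137 and 203 CPM in IVF hatched and 99.5, 145 and 236 in IVF unhatched blastocysts, against 10.5 and 21.9 in in vivo hatched and 229 and 376 in in vivo unhatched blastocysts (difference 4.47 ± 0.60, adjusted p = 0.00431). SLC7A11, the cystine and glutamate exchanger, had 5.97, 6.74 and 3.71 CPM in IVF hatched and 2.12, 1.79 and 8.92 in IVF unhatched blastocysts, against 0.709 and 0.598 in in vivo hatched and 59.9 and 69.8 in in vivo unhatched blastocysts. The in vivo blastocysts stood above all other libraries for SLC7A11, and the IVF libraries of both stages stood above the in vivo hatched ones (difference 6.98 ± 0.93, adjusted p = 0.00401). Of 27 tested genes of the integrated stress response, the programme run by ATF4 when translation is checked, 4 were called above 0 and 0 below 0. The others were SLC7A5, a carrier of large neutral amino acids (3.06), and the secreted factor GDF15 (2.52). The list had a median difference of 1.15, with -0.29 in IVF and -1.36 in in vivo hatching.

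TYMS, which makes thymidylate for DNA, had 431, 434 and 399 CPM in IVF hatched and 401, 449 and 408 in IVF unhatched blastocysts, against 91.5 and 90.2 in in vivo hatched and 498 and 456 in in vivo unhatched blastocysts. The in vivo hatched libraries stood far below all others (difference 2.40 ± 0.24, adjusted p = 0.00153). In the list of amino acid transport and one-carbon metabolism, 5 of 40 were called above 0, with CBS, which makes cystathionine (4.83), as the fifth, and 1 below 0, the amino acid carrier SLC43A2 (-3.42). Its median difference was -0.02.

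Targets of p53 had 4 of 29 tested genes called above 0 and 0 below 0, with a median difference of 0.76. CDKN1A, the cyclin-dependent kinase inhibitor p21, had 203, 238 and 245 CPM in IVF hatched and 244, 249 and 194 in IVF unhatched blastocysts, against 38.5 and 10.3 in in vivo hatched and 187 and 214 in in vivo unhatched blastocysts (difference 3.04 ± 0.58, adjusted p = 0.0169). PHLDA3, an inhibitor of AKT signalling, had 1340, 2124 and 1601 CPM in IVF hatched and 1148, 1262 and 1130 in IVF unhatched blastocysts, against 271 and 153 in in vivo hatched and 564 and 569 in in vivo unhatched blastocysts. Its ranges were apart in both origins and ran in opposite directions (difference 1.93 ± 0.37, adjusted p = 0.0174). The other 2 were ZMAT3 (1.91), which encodes an RNA-binding protein, and the death receptor FAS (3.83).

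Contractile, cytokine and signalling genes stood among the largest differences above 0. CASQ2, a calcium-storing protein of muscle, had 88.1, 88.7 and 146 CPM in IVF hatched and 101, 87.1 and 222 in IVF unhatched blastocysts, against 1.22 and 1.52 in in vivo hatched and 85.6 and 136 in in vivo unhatched blastocysts (difference 5.99 ± 0.63, adjusted p = 0.00153). ACTA1, skeletal muscle actin, had 167, 45.9 and 335 CPM in IVF hatched and 304, 31.1 and 189 in IVF unhatched blastocysts, against 1.56 and 0.324 in in vivo hatched and 209 and 160.1 in in vivo unhatched blastocysts (difference 7.70 ± 1.42, adjusted p = 0.0157). Reads of ACTA1 can be shared with other actin genes, and its IVF libraries of either stage spread over a wide range. IL6, a cytokine, had 17.6, 33.9 and 30.1 CPM in IVF hatched and 66.6, 24.8 and 46.0 in IVF unhatched blastocysts, against 0.793 and 1.82 in in vivo hatched and 113 and 55.4 in in vivo unhatched blastocysts (difference 5.25 ± 0.73, adjusted p = 0.00513). The in vivo hatched libraries were the lowest for all 3 genes. ACTA1 was not called without in vivo hatched 2 (adjusted p = 0.0639).

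N4BP2L1, a gene with no role given here, had 9.06, 6.47 and 9.12 CPM in IVF hatched and 16.5, 14.6 and 14.2 in IVF unhatched blastocysts, against 3.46 and 2.92 in in vivo hatched and 148 and 119.6 in in vivo unhatched blastocysts (difference 4.51 ± 0.36, adjusted p = 0.00036). Both origins were lower after hatching in every library, and the IVF change of -0.88 ± 0.22 was not called (adjusted p = 0.72). TBC1D16, which belongs to a family of Rab GTPase-activating proteins, had 35.5, 22.6 and 40.8 CPM in IVF hatched and 25.1, 24.6 and 26.4 in IVF unhatched blastocysts, against 0.312 and 0.449 in in vivo hatched and 7.71 and 13.3 in in vivo unhatched blastocysts (difference 5.15 ± 0.52, adjusted p = 0.00153). All IVF libraries exceeded all in vivo libraries for TBC1D16. It overlaps LOC110255947, and strand was not stated. PKD2 (polycystin, a calcium-permeable channel; 6.44), ABLIM1 (an actin-binding protein; 5.74) and TMEM40 (5.32) completed the largest differences whose groups all had counts. PKD2 was not called without in vivo hatched 2 (adjusted p = 0.0802), nor was ABLIM1 with any 1 library left out other than in vivo blastocyst 2, in vivo hatched unnumbered or 2 or IVF blastocyst 1 (adjusted p up to 0.0758). TMEM40 was not called without in vivo blastocyst 1, in vivo hatched 2, IVF blastocyst 3 or IVF hatched 1 or 2 (adjusted p up to 0.0904).

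Of the 433 genes above 0, 43 had 0 counts in both in vivo hatched libraries, 7 of them named here. PAG6, of the pregnancy-associated glycoprotein family of the ruminant and pig trophoblast, had 4.60, 4.09 and 5.79 CPM in IVF hatched and 10.6, 1.97 and 3.05 in IVF unhatched blastocysts, against 0 and 0 in in vivo hatched and 1.28 and 16.5 in in vivo unhatched blastocysts. In vivo hatched blastocysts were thus at least 111-fold lower than in vivo blastocysts, against a floor of 3 counts per library, while the IVF stages overlapped. The bound rests on in vivo blastocyst 2, being 16.1-fold without it and 206-fold without in vivo blastocyst 1. PAG6 has near-identical relatives and overlaps LOC100522849, so its reads may be split. CYP19A3, a pig aromatase that makes oestrogen and has close copies in the genome, had 0.426, 2.96 and 1.41 CPM in IVF hatched and 0.101, 1.14 and 2.72 in IVF unhatched blastocysts, against 0 and 0 in in vivo hatched and 2.12 and 11.05 in in vivo unhatched blastocysts (at least 82.4-fold lower, 26.6-fold without in vivo blastocyst 2 and 138-fold without in vivo blastocyst 1). The transmembrane protease TMPRSS13 (at least 49.6-fold lower in in vivo hatched blastocysts), the phosphatidate phosphatase LPIN1 (at least 54.8-fold), the secreted protease ADAMTS8 (at least 33.1-fold), C1H15orf52 (at least 11.3-fold) and the phosphatase ACPP (at least 8.05-fold) had counts in each of the 6 IVF libraries. Without in vivo blastocyst 2 the bound of TMPRSS13 was 28.7-fold and that of ACPP 4.55-fold. PAG6 was not called without in vivo hatched 2 (adjusted p = 0.069), nor was CYP19A3 with any 1 library left out other than in vivo blastocyst 1, IVF blastocyst 1 or 3 or IVF hatched 1 (adjusted p up to 0.107). TMPRSS13 was not called without in vivo hatched 2 (adjusted p = 0.0629), nor was ACPP without in vivo hatched 2 (adjusted p = 0.0594).

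MSX2, a homeobox factor of the trophectoderm, had 234, 189.5 and 194 CPM in IVF hatched and 196, 267 and 183 in IVF unhatched blastocysts, against 102 and 80.9 in in vivo hatched and 361 and 472 in in vivo unhatched blastocysts (difference 2.12 ± 0.33, adjusted p = 0.00781). ACADVL, which starts the breakdown of very long fatty acids, had 392, 491 and 455 CPM in IVF hatched and 366, 331 and 300.0 in IVF unhatched blastocysts, against 234 and 198 in in vivo hatched and 566 and 658 in in vivo unhatched blastocysts (difference 1.93 ± 0.27, adjusted p = 0.00582). The IVF ranges of ACADVL were apart and higher after hatching, and the in vivo ranges apart and lower; it overlaps DLG4 and DVL2. In the list of fatty acid synthesis and lipid droplets, 3 of 33 genes were called above 0 (ACADVL, LPIN1 and ACADL, which act in fat breakdown or phosphatidate handling) and 4 below 0: the desaturase FADS1 (-2.07), the elongase ELOVL6 (-2.31), and ACSS2 (-2.82) and ACSL3 (-2.04), which activate acetate and long fatty acids. ACADL had a difference of 2.81. The median difference of that list was 0.02.

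Single members of other lists were called above 0, counts near the 2.79% of all genes. Among them was the succinate dehydrogenase subunit SDHB (1.38 ± 0.31, 1 of 31 oxidative phosphorylation genes, list median 0.45). The proteasome subunit PSMD11 (1.61 ± 0.32, 1 of 35, list median 0.29) and the endoplasmic reticulum protein SDF2L1 (1.94 ± 0.47, 1 of 30, list median -0.08) were 2 more. The oxygen-sensing hydroxylase EGLN3 (2.32 ± 0.48, 1 of 26), the tight junction scaffold TJP3 (1.70 ± 0.36, 1 of 37) and the WNT-pathway repressor TCF7L1 (2.44 ± 0.49, 1 of 43) were the others. The lists of EGLN3, TJP3 and TCF7L1 also had 2, 2 and 3 members called below 0, beside 1.93% of all genes. Of the nuclear oxidative phosphorylation genes, 29 of 31 had an estimate above 0, with a median of 0.05 in IVF and -0.36 in in vivo hatching. DPPA5, a marker of naive pluripotency in the mouse, had 23.6, 24.9 and 18.5 CPM in IVF hatched and 54.8, 34.5 and 40.2 in IVF unhatched blastocysts, against 4.96 and 3.24 in in vivo hatched and 42.0 and 42.9 in in vivo unhatched blastocysts. Both origins were lower after hatching in every library, and the in vivo change was the larger by 2.42 ± 0.41 (adjusted p = 0.0102). SDHB was not called with any 1 library left out other than in vivo blastocyst 2, in vivo hatched unnumbered or IVF hatched 3 (adjusted p up to 0.123), nor was PSMD11 without in vivo blastocyst 1, in vivo hatched 2 or IVF hatched 2 (adjusted p up to 0.0706). SDF2L1 was not called with any 1 library left out other than in vivo blastocyst 2 or in vivo hatched unnumbered (adjusted p up to 0.164), nor was EGLN3 without IVF blastocyst 3 or IVF hatched 3 (adjusted p up to 0.059). TJP3 was not called without in vivo blastocyst 2, in vivo hatched 2, IVF blastocyst 1 or 3 or IVF hatched 3 (adjusted p up to 0.0682), nor was TCF7L1 without in vivo blastocyst 1 or in vivo hatched 2 (adjusted p up to 0.0645).

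Imprinted genes, expressed from 1 parental copy, had 3 of 19 tested called above 0 and 1 below 0, with a median difference of 0.80 that was 0.05 without in vivo blastocyst 2. SLC22A18, an organic cation carrier gene of the cluster on chromosome 2, had 7.87, 7.79 and 6.28 CPM in IVF hatched and 3.57, 6.77 and 7.59 in IVF unhatched blastocysts, against 0.822 and 1.27 in in vivo hatched and 10 and 18.5 in in vivo unhatched blastocysts (difference 4.05 ± 0.64, adjusted p = 0.00787). CDKN1C, a cyclin-dependent kinase inhibitor (2.66), and GNAS, the stimulatory G protein subunit (1.59), were the others above 0. The member below 0 was ASCL2, a transcription factor that maintains trophoblast progenitors in the mouse. ASCL2 had 32.8, 12.8 and 12.8 CPM in IVF hatched and 9.26, 34.4 and 7.37 in IVF unhatched blastocysts, against 77.8 and 33.1 in in vivo hatched and 0.112 and 0.256 in in vivo unhatched blastocysts (difference -8.00 ± 1.15, adjusted p = 0.00587). Its IVF libraries lay between the in vivo stages, except IVF blastocyst 2, which exceeded in vivo hatched library 2. Whether other genes of the list are imprinted in the pig was taken from the mouse and human.

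**Figure D3:**
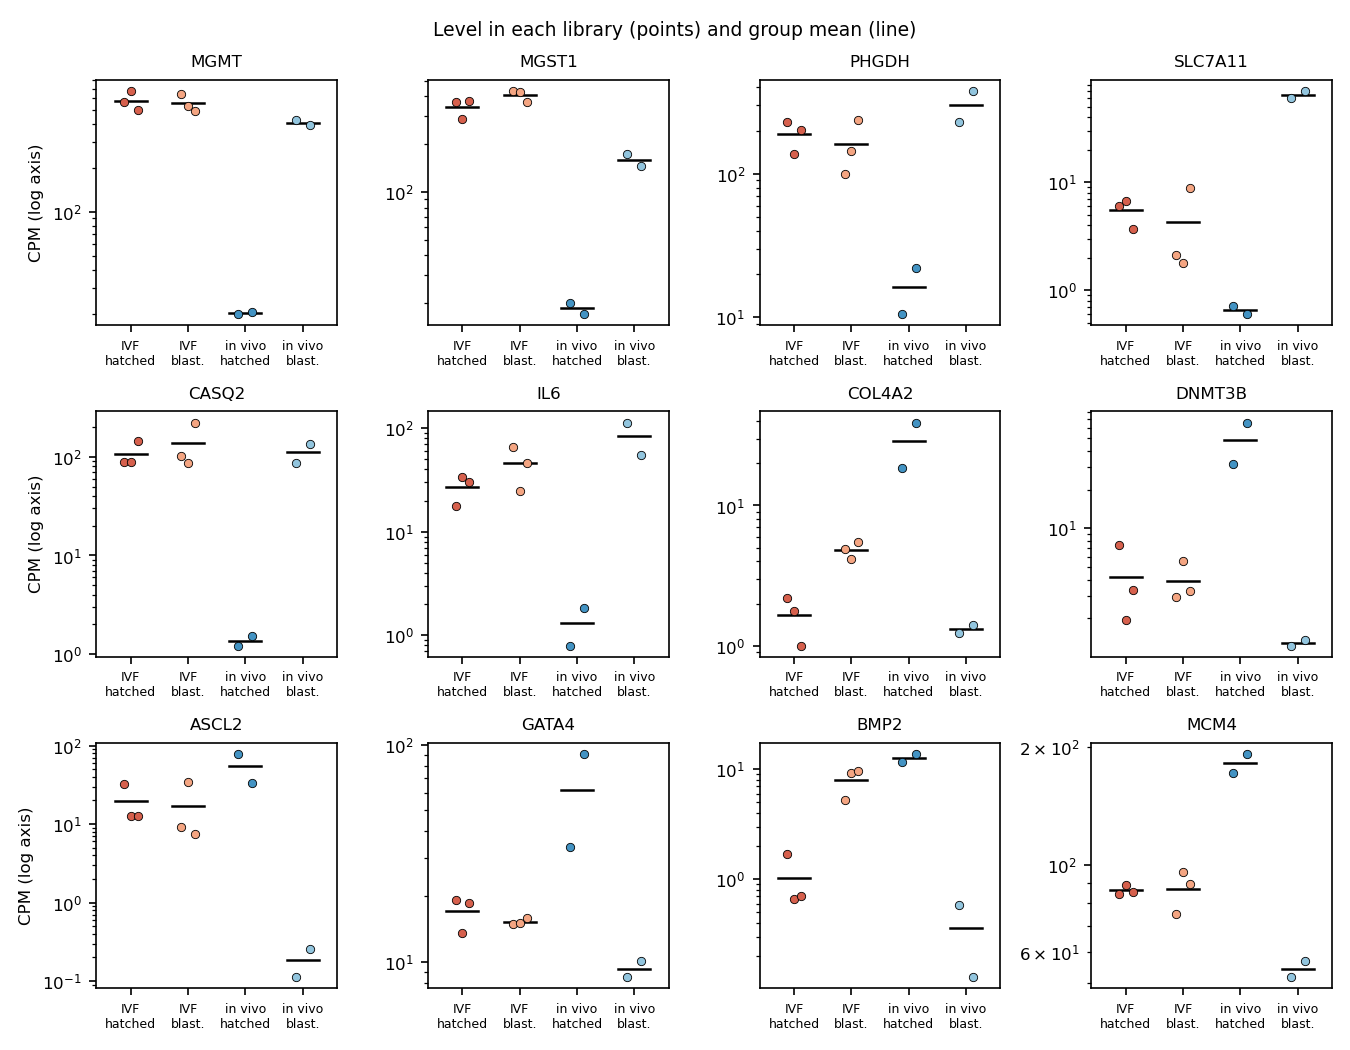
Level of 12 genes in each of the 10 libraries (points, CPM on a log axis) with the group mean (line), for IVF hatched, IVF unhatched, in vivo hatched and in vivo unhatched blastocysts from left to right. The in vivo hatched libraries are lowest for MGMT, MGST1, PHGDH, SLC7A11, CASQ2 and IL6, and highest on average for COL4A2, DNMT3B, ASCL2, GATA4, BMP2 and MCM4.

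Of 25 tested hypoblast genes, 11 rose and 1 fell in in vivo hatching, beside 6.96% and 7.39% of all genes. In IVF hatching 0 were called (edgeR), beside 0% higher and 0.0451% lower of all genes. In the difference, 5 were called below 0 and 0 above 0, beside 1.93% and 2.79% of all genes. An estimate below 0 was found in 23 of the 25. The median difference was -2.58, with medians of -0.08 in IVF and 2.75 in in vivo hatching. GATA4, a transcription factor of primitive endoderm (chromosome 14, 14858470 to 14938156), had 19.3, 13.6 and 18.6 CPM in IVF hatched and 14.9, 15.1 and 15.9 in IVF unhatched blastocysts, against 33.8 and 90.4 in in vivo hatched and 8.49 and 10.03 in in vivo unhatched blastocysts (difference -2.58 ± 0.51, adjusted p = 0.0197). SOX17, which acts beside GATA4, had 5.43, 1.57 and 0.812 CPM in IVF hatched and 5.31, 2.36 and 3.05 in IVF unhatched blastocysts, against 30.6 and 76.5 in in vivo hatched and 2.52 and 3.79 in in vivo unhatched blastocysts (difference -4.54 ± 1.00, adjusted p = 0.0292). For both factors the in vivo hatched libraries stood above all other libraries, and library 2 above the unnumbered one. GATA4 was not called without in vivo blastocyst 1 or in vivo hatched 2 (adjusted p up to 0.0662), nor was SOX17 without in vivo blastocyst 1, in vivo hatched 2, IVF blastocyst 1 or 3 or IVF hatched 2 (adjusted p up to 0.0991).

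COL4A2, a chain of the basement membrane collagen, had 2.19, 1.77 and 1.00 CPM in IVF hatched and 4.91, 4.12 and 5.47 in IVF unhatched blastocysts, against 18.6 and 38.96 in in vivo hatched and 1.23 and 1.41 in in vivo unhatched blastocysts. The ranges were apart in both origins, lower after hatching in IVF embryos and higher in in vivo embryos (difference -5.99 ± 0.65, adjusted p = 0.00153; IVF change -1.55 ± 0.39, adjusted p = 0.738). Its neighbour COL4A1, whose annotated span overlaps it, had a difference of -6.14 ± 1.44 (adjusted p = 0.0364). SERPINH1, the collagen chaperone, had 11.2, 5.50 and 4.76 CPM in IVF hatched and 10.96, 4.02 and 9.06 in IVF unhatched blastocysts, against 93.5 and 208 in in vivo hatched and 10.4 and 12.5 in in vivo unhatched blastocysts (difference -3.88 ± 0.70, adjusted p = 0.0144). GATA6, an early hypoblast factor, had 151, 114 and 176 CPM in IVF hatched and 145, 186 and 164 in IVF unhatched blastocysts, against 98.1 and 180.1 in in vivo hatched and 96.0 and 148 in in vivo unhatched blastocysts, and all 4 groups overlapped (difference -0.36 ± 0.42, adjusted p = 0.673). PDGFRA, the hypoblast receptor, had 5.06, 4.31 and 3.73 CPM in IVF hatched and 2.48, 1.87 and 3.46 in IVF unhatched blastocysts, against 20.2 and 206 in in vivo hatched and 12.1 and 13.9 in in vivo unhatched blastocysts. Its in vivo hatched libraries lay far apart, library 2 being the higher, and the difference of -2.38 ± 0.94 was not called (adjusted p = 0.169).

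The summed hypoblast list was 1771 to 2436 CPM in IVF hatched and 1804 to 2199 in IVF unhatched blastocysts, 5717 (unnumbered) and 11870 (library 2) in in vivo hatched, and 4174 and 2542 in in vivo unhatched blastocysts. Stroma and vessel markers summed to 2.74 to 6.82 CPM in IVF hatched, 4.43 to 8.38 in IVF unhatched, 11.8 and 50.9 in in vivo hatched and 13.6 and 9.31 in in vivo unhatched blastocysts. Of the 10 markers of that list, COL1A1, LUM, VWF, CDH5 and KDR were at 0 in the in vivo hatched libraries. There PECAM1 averaged 28.6, DCN 1.56, COL3A1 1.02, PDGFRB 0.117 and COL1A2 0.0748 CPM. COL3A1 was at 0 in the other 3 groups, and PECAM1 and PDGFRB were also higher in in vivo hatched blastocysts than in each other group. Of the 2 stroma markers tested, 0 were called. Their part in the hypoblast result was not tested.

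Of the other marker lists, 0 of 7 tested oviduct and uterine epithelium, 0 of 3 blood and immune, 0 of 2 cumulus and granulosa and 0 of 9 oocyte markers were called. The summed oviduct list was 22.4 to 34.6 CPM in IVF hatched, 23.8 to 36.8 in IVF unhatched, 29.1 and 25.7 in in vivo hatched and 16.7 and 13.95 in in vivo unhatched blastocysts. FUT8, a sugar transferase of many cell types, averaged 24.3 CPM in IVF hatched, 24.85 in IVF unhatched, 24.7 in in vivo hatched and 10.4 in in vivo unhatched blastocysts, and PGR, the progesterone receptor, at most 2.90 CPM in any group. The blood list held at most 7.07 CPM and the sperm list at most 0.154 CPM in any library. The granulosa list summed to 37.4 to 175 CPM in IVF hatched, 3.73 to 71.7 in IVF unhatched, 145 and 95.1 in in vivo hatched and 8.94 and 6.08 in in vivo unhatched blastocysts, nearly all from CYP11A1, a steroid-making enzyme that the trophoblast also expresses, and VCAN. FSHR, LHCGR and TNFAIP6 were at 0 in all 10 libraries. The oocyte list was 0.387 to 2.33 CPM in IVF hatched, 4.11 to 11.6 in IVF unhatched, 11.2 and 18.2 in in vivo hatched and 4.44 and 4.795 in in vivo unhatched blastocysts. Most of the in vivo hatched sum was ZAR1, which averaged 12.9 CPM there and 0 in in vivo unhatched blastocysts. ZP4, BMP15, NLRP5 and NPM2 also averaged higher in in vivo hatched than in in vivo unhatched blastocysts. ZP2, GDF9, KPNA7 and MOS averaged lower.

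Pluripotency genes had 1 of 26 called on each side, with a median difference of -0.17. DNMT3B, a DNA methyltransferase of the epiblast (chromosome 17, 36345715 to 36386076), had 7.42, 1.93 and 3.33 CPM in IVF hatched and 2.94, 5.57 and 3.27 in IVF unhatched blastocysts, against 31.5 and 66.2 in in vivo hatched and 1.23 and 1.36 in in vivo unhatched blastocysts. Both in vivo hatched libraries exceeded all others (difference -5.13 ± 0.80, adjusted p = 0.00781). POU5F1, the core pluripotency factor, had 742, 999.6 and 991 CPM in IVF hatched and 1367, 1065 and 902 in IVF unhatched blastocysts, against 525 and 305 in in vivo hatched and 836 and 675 in in vivo unhatched blastocysts, a difference of 0.58 ± 0.38 that was not called (adjusted p = 0.403). SOX2, its partner, had at most 6.69 CPM in any library (difference -2.46 ± 1.67, adjusted p = 0.414). Among 35 regulators of DNA methylation and chromatin, 3 were called below 0 and 0 above 0: DNMT3B, the acetyltransferase KAT2A (-2.77 ± 0.54) and the histone methyltransferase EZH2 (-1.38 ± 0.29).

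Trophectoderm genes did not move 1 way. Of 29 tested, 2 were called above 0 (MSX2 and TFAP2A, 1.89) and 2 below 0 (HSD17B1 and CLDN6), with a median difference of -0.09. HSD17B1, which converts oestrone to oestradiol, had 365, 138 and 106 CPM in IVF hatched and 104, 258 and 108 in IVF unhatched blastocysts, against 101 and 29.0 in in vivo hatched and 2.26 and 1.39 in in vivo unhatched blastocysts (difference -4.78 ± 0.94, adjusted p = 0.0189). All 6 IVF libraries stood above all 4 in vivo libraries for HSD17B1, and the in vivo blastocysts were the lowest. CLDN6, a tight junction claudin, had 1149, 623 and 844 CPM in IVF hatched and 1244, 1542 and 1239 in IVF unhatched blastocysts, against 708 and 453 in in vivo hatched and 191 and 328 in in vivo unhatched blastocysts (difference -1.78 ± 0.44, adjusted p = 0.043). CDX2 (difference -0.58 ± 0.58, adjusted p = 0.603) and GATA3 (1.29 ± 0.44, adjusted p = 0.117), trophectoderm transcription factors, were not called. CLDN6 was not called with any 1 library left out other than in vivo blastocyst 2, in vivo hatched 2 or IVF hatched 1 (adjusted p up to 0.133).

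BMP2, a ligand of the BMP pathway (chromosome 17, 15750487 to 15762982), had 1.71, 0.663 and 0.704 CPM in IVF hatched and 5.24, 9.23 and 9.60 in IVF unhatched blastocysts, against 11.6 and 13.7 in in vivo hatched and 0.587 and 0.128 in in vivo unhatched blastocysts. The 3 IVF hatched libraries were all below the 3 IVF unhatched ones, and the in vivo hatched libraries both above the in vivo unhatched ones. The difference was -8.11 ± 0.97 (adjusted p = 0.00225), from an IVF change of -2.97 ± 0.57 (adjusted p = 0.272) and an in vivo change of 5.14 ± 0.78 (adjusted p = 0.00234). In the list of WNT, FGF, BMP and Nodal signalling, 3 of 43 were called below 0, with the ERK phosphatase DUSP6 (-2.82) and the BMP target ID3 (-1.64) beside BMP2, and 1 above 0. EREG, an EGF-family ligand, had 37.3, 40.3 and 35.7 CPM in IVF hatched and 22.7, 43.9 and 30.4 in IVF unhatched blastocysts, against 58.8 and 58.4 in in vivo hatched and 8.19 and 7.13 in in vivo unhatched blastocysts (difference -2.71 ± 0.40, adjusted p = 0.00639). Its in vivo blastocysts were the lowest of the 10 libraries. With IL6 above 0 and the kinase PIM1 (-2.50) below 0, the EGF, IL6 and LIF list had 1 of 23 called above 0 and 2 below 0.

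Ranges apart in both origins and in opposite directions were found for 90 of the 732 called genes (12.3%), 52 above 0 and 38 below 0, and for 2.05% of all genes tested. In vivo ranges were apart for all 433 genes above 0 and for 298 of 299 below 0, against 53.5% of all genes. IVF ranges were apart for 10.7% of all genes. These shares describe genes chosen by the contrast.

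Of 37 mitosis genes, 11 rose and 1 fell in in vivo hatching, and of 43 DNA replication genes 12 rose and 1 fell. Over all genes, 6.96% were called higher and 7.39% lower in in vivo hatching. In the difference, 5 mitosis genes were called below 0 and 0 above 0 (median difference -0.65), beside 1.93% and 2.79% of all genes. PLK1, a mitotic kinase that overlaps ERN2, had 166, 114 and 111 CPM in IVF hatched and 117, 104 and 133 in IVF unhatched blastocysts, against 249.6 and 318 in in vivo hatched and 64.5 and 56.0 in in vivo unhatched blastocysts (difference -2.09 ± 0.33, adjusted p = 0.00847). CCNA2, cyclin A, had a difference of -1.54 ± 0.28, and CDK1 (-1.58), the topoisomerase TOP2A (-2.14) and CCNB3 (-2.58) were the others. Of the DNA replication genes, 3 were called below 0 and 1, TYMS, above 0 (median -0.61). MCM4, a subunit of the replicative helicase, had 84.6, 89.2 and 85.2 CPM in IVF hatched and 74.9, 96.0 and 89.5 in IVF unhatched blastocysts, against 172 and 192 in in vivo hatched and 51.8 and 56.8 in in vivo unhatched blastocysts (difference -1.75 ± 0.27, adjusted p = 0.00781). All 6 IVF libraries of MCM4 lay between the in vivo stages, and the IVF stages overlapped. The cyclins CCNE1 (-2.44) and CCNE2 (-2.77) were the other 2.

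Glycolysis had 4 of 22 called below 0 and 0 above 0 (median -0.37, and -1.13 without in vivo blastocyst 2). HK1, a hexokinase, had 60.7, 45.1 and 45.4 CPM in IVF hatched and 34.9, 59.2 and 34.6 in IVF unhatched blastocysts, against 61.1 and 116 in in vivo hatched and 8.49 and 14.4 in in vivo unhatched blastocysts (difference -2.72 ± 0.51, adjusted p = 0.0162). PKM, pyruvate kinase (-1.75 ± 0.35), the glucose carrier SLC2A1 (-1.55 ± 0.37) and the lactate dehydrogenase LDHA (-1.34 ± 0.34) were the others, and SLC2A1 and LDHA are also in the hypoxia list (2 of 26 below 0, 1 above 0). Heat shock proteins had 2 of 24 below 0 (median -0.61). DNAJB1, a co-chaperone, had 108, 138 and 125 CPM in IVF hatched and 174, 115 and 108 in IVF unhatched blastocysts, against 1014 and 468 in in vivo hatched and 145 and 193 in in vivo unhatched blastocysts (difference -2.23 ± 0.46, adjusted p = 0.0224). The other was the co-chaperone BAG3 (-1.73 ± 0.37, adjusted p = 0.0254). HSPA5, the main chaperone of the endoplasmic reticulum, had 789, 1466 and 783 CPM in IVF hatched and 1020, 528 and 852 in IVF unhatched blastocysts, against 4776 and 2672 in in vivo hatched and 4098 and 2887 in in vivo unhatched blastocysts. IVF libraries were below in vivo libraries at both stages, and the difference of 0.25 ± 0.52 was not called (adjusted p = 0.841). HK1 was not called without in vivo blastocyst 1 (adjusted p = 0.0514), nor was PKM without in vivo blastocyst 1 or in vivo hatched 2 (adjusted p up to 0.0569). SLC2A1 was not called with any 1 library left out other than in vivo blastocyst 2 or in vivo hatched unnumbered (adjusted p up to 0.117), nor was DNAJB1 without in vivo blastocyst 1 or IVF hatched 1 (adjusted p up to 0.0804). BAG3 was not called with any 1 library left out other than in vivo blastocyst 2, in vivo hatched unnumbered, IVF blastocyst 2 or IVF hatched 1 (adjusted p up to 0.0835).

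Genes of ribosome production had 3 of 46 called below 0 and 1 above 0 (median -0.51). NCL, nucleolin, had 67.7, 49.9 and 34.6 CPM in IVF hatched and 45.8, 48.6 and 75.5 in IVF unhatched blastocysts, against 134 and 58.4 in in vivo hatched and 14.0 and 16.3 in in vivo unhatched blastocysts (difference -2.83 ± 0.55, adjusted p = 0.0177). The RNA acetyltransferase NAT10 (-2.24 ± 0.39) and RRP12 (-2.27) were also below 0, and IMP4 (1.32) above 0. Ribosomal proteins had 2 of 77 below 0, RPL17 (-1.45 ± 0.36) and RPL35A (-1.64 ± 0.41), with 65 of 77 estimates below 0 and a median of -0.44. Ribosomal protein genes have many processed copies, so these values are uncertain. Of 39 translation factors 1 was called, EIF4G2 (-1.90 ± 0.38). The ribosomal protein and translation factor counts are near the 1.93% of all genes called below 0. Of 56 splicing genes and 13 messages of the mitochondrial genome, 0 were called in the difference (edgeR). The mitochondrial messages had a median difference of -0.65, which was 0.37 without in vivo hatched library 2, the library with the highest mitochondrial share. NCL was not called without in vivo blastocyst 1 (adjusted p = 0.0606), nor was RPL17 with any 1 library left out other than in vivo hatched 2 (adjusted p up to 0.129). RPL35A was not called with any 1 library left out other than in vivo hatched 2 or IVF hatched 1 (adjusted p up to 0.119), nor was EIF4G2 without in vivo blastocyst 1 or in vivo hatched 2 (adjusted p up to 0.0691).

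Ion channels and carriers of cavity formation had 3 of 21 called below 0 and 0 above 0, with a median of -1.09. SCNN1B, a subunit of the epithelial sodium channel, had 6.19, 2.29 and 4.76 CPM in IVF hatched and 2.58, 6.17 and 3.43 in IVF unhatched blastocysts, against 16.6 and 16.7 in in vivo hatched and 0.279 and 0 in in vivo unhatched blastocysts (difference -6.77 ± 1.19, adjusted p = 0.0126). SCNN1G, another subunit of that channel (-3.84), and SLC12A2, a sodium, potassium and chloride carrier with 2 overlapping genes (-3.90 ± 0.86), were the others. In vivo blastocysts had at most 0.279 CPM of SCNN1B, below all 6 IVF libraries. SLC12A2 was not called with any 1 library left out other than in vivo blastocyst 1, in vivo hatched unnumbered, IVF blastocyst 2 or IVF hatched 3 (adjusted p up to 0.112).

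Interferon and antigen presentation had 4 of 28 called below 0 and 0 above 0. The median difference was -1.94, but 7 of the 28 had a group at 0 counts, and over genes with a mean of at least 5 CPM the median was 1.12. PSMB10, an immunoproteasome subunit, had 2.44, 2.82 and 3.44 CPM in IVF hatched and 6.86, 2.90 and 3.51 in IVF unhatched blastocysts, against 10.7 and 7.68 in in vivo hatched and 1.51 and 1.15 in in vivo unhatched blastocysts (difference -3.39 ± 0.68, adjusted p = 0.0209). IFIT1, an antiviral protein of a gene family, had 0 counts in in vivo blastocysts and was at least 47.3-fold higher in in vivo hatched ones, while IVF libraries had 3.32, 2.65 and 10.1 CPM hatched and 6.25, 2.18 and 1.14 unhatched. IFITM3, also of a family, was at 0 in in vivo blastocysts, and its 0.538 and 13.3 CPM in in vivo hatched blastocysts came nearly all from library 2. Its bound was at least 86.3-fold higher, 6.70-fold without library 2 and 166-fold without the unnumbered library. IFNAR2, an interferon receptor chain, averaged 0.585 CPM in IVF hatched and 1.16 in IVF unhatched blastocysts, against 0.728 in in vivo hatched and 0 in in vivo unhatched blastocysts. PSMB10 was not called without IVF hatched 2 (adjusted p = 0.0515), nor was IFIT1 without in vivo blastocyst 1 (adjusted p = 0.0651). IFITM3 was not called with any 1 library left out other than in vivo hatched unnumbered or IVF blastocyst 2 (adjusted p up to 0.197).

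The largest differences below 0 included genes nearly absent in in vivo blastocysts. Of the 299 genes, 30 had 0 counts in both in vivo blastocyst libraries. RNASE1, a secreted ribonuclease, had 1.14, 0.912 and 1.05 CPM in IVF hatched and 1.57, 1.06 and 1.36 in IVF unhatched blastocysts, against 18.1 and 17.1 in in vivo hatched and 0 and 0.256 in in vivo unhatched blastocysts (difference -7.40 ± 1.10, adjusted p = 0.00693). SLC39A8, a zinc and manganese carrier, had 1.88, 0.995 and 2.25 CPM in IVF hatched and 1.09, 2.72 and 0.980 in IVF unhatched blastocysts, against 13.3 and 32.4 in in vivo hatched and 0.252 and 0 in in vivo unhatched blastocysts (difference -7.41 ± 1.28, adjusted p = 0.0117). FLRT3, a membrane protein of cell adhesion and FGF signalling that lies within MACROD2, had 4.38, 0.774 and 0.514 CPM in IVF hatched and 0.253, 3.29 and 2.12 in IVF unhatched blastocysts, against 53.3 and 366 in in vivo hatched and 0 and 0.692 in in vivo unhatched blastocysts (difference -9.20 ± 1.92, adjusted p = 0.0235). For these 3 genes every in vivo hatched library exceeded every other library. FLRT3 was not called without in vivo blastocyst 1, in vivo hatched 2, IVF blastocyst 3 or IVF hatched 2 (adjusted p up to 0.0829).

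Some of these large differences rest on 1 in vivo hatched library or on few counts. KCNE3, a potassium channel subunit, had 2.01 and 33.2 CPM in in vivo hatched blastocysts, library 2 holding the higher value (difference -8.16 ± 1.77). VIM, vimentin of mesenchymal cells, had 1.05, 1.22 and 0.866 CPM in IVF hatched and 2.48, 0.441 and 4.62 in IVF unhatched blastocysts, against 8.13 and 9.15 in in vivo hatched and 0.168 and 0.256 in in vivo unhatched blastocysts (difference -6.59 ± 1.17). SRPK3, a kinase of splicing proteins, had 6.46 and 3.86 CPM in in vivo hatched and 0 and 0.205 in in vivo unhatched blastocysts. Its IVF libraries had 0.114, 0 and 0 CPM hatched and 0.531, 0.726 and 0.789 unhatched. These IVF ranges were apart, and the IVF change of -4.07 ± 1.29, on few counts, was not called. SOX21, a transcription factor related to SOX2, was at 0 counts in in vivo blastocysts and at least 65.6-fold higher in in vivo hatched ones, and ENTPD1, which breaks down extracellular ATP, at least 65.9-fold higher (28.6-fold without in vivo hatched 2 and 103-fold without the unnumbered one). In the IVF libraries SOX21 had at most 0.228 CPM and ENTPD1 at most 0.0816 CPM. JAM3, a junctional adhesion molecule that overlaps NCAPD3, was at 0 in the 3 IVF hatched libraries and had 0.557, 0 and 0.218 CPM in IVF blastocysts, against 5.81 and 17.2 in in vivo hatched and 0 and 0.410 in in vivo unhatched blastocysts. KCNE3 was not called without in vivo blastocyst 1, in vivo hatched 2, IVF blastocyst 3 or IVF hatched 1 or 3 (adjusted p up to 0.118), nor was SRPK3 without in vivo blastocyst 1, in vivo hatched unnumbered or 2 or IVF blastocyst 3 (adjusted p up to 0.0628). SOX21 was not called without in vivo blastocyst 1 or in vivo hatched 2 (adjusted p up to 0.0827), nor was ENTPD1 with any 1 library left out other than in vivo blastocyst 2, in vivo hatched unnumbered or IVF blastocyst 2 (adjusted p up to 1). JAM3 was not called with any 1 library left out other than in vivo blastocyst 2, in vivo hatched unnumbered or IVF blastocyst 2 (adjusted p up to 0.126).

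The genes called in IVF hatching in the main fit were cholesterol genes that fell, and most of the same genes fell in in vivo embryos. Other fits called more genes in IVF hatching, 51 with DESeq2 and 11 at a mean of at least 5 CPM. All 7 genes of the main fit were members of the list of cholesterol synthesis and uptake (27 tested), and all 7 fell. In in vivo hatching 12 of the 27 fell and 1 rose, SCAP, which escorts the sterol-sensing factor SREBP (1.85). Over all genes, 0.0451% were called lower in IVF hatching, and 7.39% lower and 6.96% higher in in vivo hatching. The median change of the list was -1.61 in IVF and -1.14 in in vivo hatching, with a median difference of -0.39. INSIG1, which holds SREBP back when sterol is plentiful, had 14.8, 28.4 and 22.7 CPM in IVF hatched and 214, 137 and 151 in IVF unhatched blastocysts, against 22.7 and 28.3 in in vivo hatched and 173 and 193 in in vivo unhatched blastocysts. Its change was -2.93 ± 0.28 in IVF (adjusted p = 0.00237) and -2.84 ± 0.34 in in vivo hatching (adjusted p = 0.000889), with a difference of -0.08 ± 0.41 that was not called (adjusted p = 0.949). MSMO1, a sterol demethylase, had a change of -3.12 ± 0.32 in IVF and -3.05 ± 0.40 in in vivo hatching and a difference of -0.06 ± 0.47. FDFT1, squalene synthase, had -3.33 ± 0.32 in IVF and -2.83 ± 0.38 in in vivo hatching (difference -0.50 ± 0.46), and FDPS, which makes farnesyl diphosphate, -1.88 ± 0.23 in IVF and -1.52 ± 0.27 in in vivo hatching (difference -0.36 ± 0.35).

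HMGCS1, which starts the mevalonate route, had 48.8, 50.0 and 66.3 CPM in IVF hatched and 226, 246 and 296 in IVF unhatched blastocysts, against 68.6 and 58.6 in in vivo hatched and 114 and 166 in in vivo unhatched blastocysts (difference -1.08 ± 0.34, adjusted p = 0.0894, not called). CYP51, a lanosterol demethylase, had a difference of -1.68 ± 0.58 (adjusted p = 0.118, not called). A p that misses the threshold does not show equal changes, and the SE of each difference gives its precision. Without IVF blastocyst 1, and likewise without IVF blastocyst 3, 4 genes were called in IVF hatching.

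**Figure D4:**
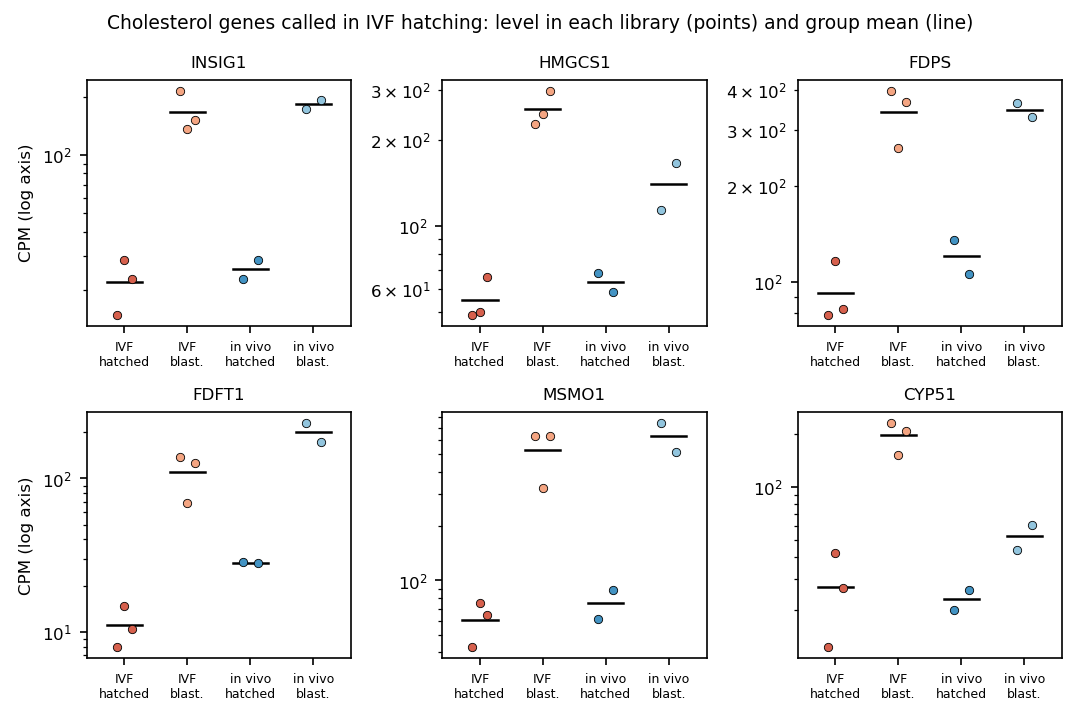
Level of 6 cholesterol genes called in IVF hatching in each of the 10 libraries (points, CPM on a log axis) with the group mean (line), for IVF hatched, IVF unhatched, in vivo hatched and in vivo unhatched blastocysts from left to right. Hatched libraries lie below unhatched ones in both origins for all 6.

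SC5D, a late sterol desaturase that overlaps LOC106504896, had 95.7, 109.7 and 133 CPM in IVF hatched and 266, 227 and 255 in IVF unhatched blastocysts, against 54.0 and 44.5 in in vivo hatched and 315 and 260.3 in in vivo unhatched blastocysts. SC5D was lower after hatching in every library of both origins, with a change of -1.14 ± 0.19 in IVF (adjusted p = 0.0964) and -2.54 ± 0.24 in vivo (adjusted p = 0.000306), and the difference was 1.40 ± 0.30 (adjusted p = 0.0249). SC5D was not called with any 1 library left out other than in vivo blastocyst 2, in vivo hatched unnumbered or IVF hatched 1 (adjusted p up to 0.0939).

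Neither origin's own change was called for 8 of the 732 genes. CNDP1, a dipeptidase, had 77.9, 97.8 and 82.7 CPM in IVF hatched and 50.2, 58.4 and 55.3 in IVF unhatched blastocysts, against 104 and 97.4 in in vivo hatched and 186 and 125 in in vivo unhatched blastocysts (difference 1.28 ± 0.31, adjusted p = 0.0407). RAB34, a Rab GTPase, had 4.29, 3.67 and 2.49 CPM in IVF hatched and 11.2, 8.61 and 9.77 in IVF unhatched blastocysts, against 9.01 and 6.95 in in vivo hatched and 3.74 and 4.23 in in vivo unhatched blastocysts (difference -2.50 ± 0.52, adjusted p = 0.0241). Both had ranges apart in opposite directions in IVF and in vivo embryos. The transmembrane proteases TMPRSS2 (below 0, -2.79 ± 0.65) and TMPRSS13 (above 0), with the inhibitor SERPINB5 above 0 (2.93), were the called genes of 28 hatching proteases and inhibitors. Annexin, actin and contractile genes had 2 of 45 called above 0 (ACTA1 and the actin crosslinker ACTN4, 1.62) and 2 below 0 (VIM and RDX, a membrane to actin linker, -1.97). Tight junction, keratin and desmosome genes had 1 of 37 above 0 (TJP3) and 2 below 0 (CLDN6 and the polarity kinase PRKCI, -1.57). Steroid and prostaglandin genes had 1 of 19 on each side (CYP19A3 above 0, HSD17B1 below 0). CNDP1 was not called with any 1 library left out other than in vivo blastocyst 2 (adjusted p up to 0.168), nor was RAB34 without in vivo blastocyst 1, IVF blastocyst 1 or 3 or IVF hatched 2 (adjusted p up to 0.076). TMPRSS2 was not called with any 1 library left out other than in vivo blastocyst 2, in vivo hatched 2 or IVF blastocyst 1 (adjusted p up to 0.11).

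**Figure D5:**
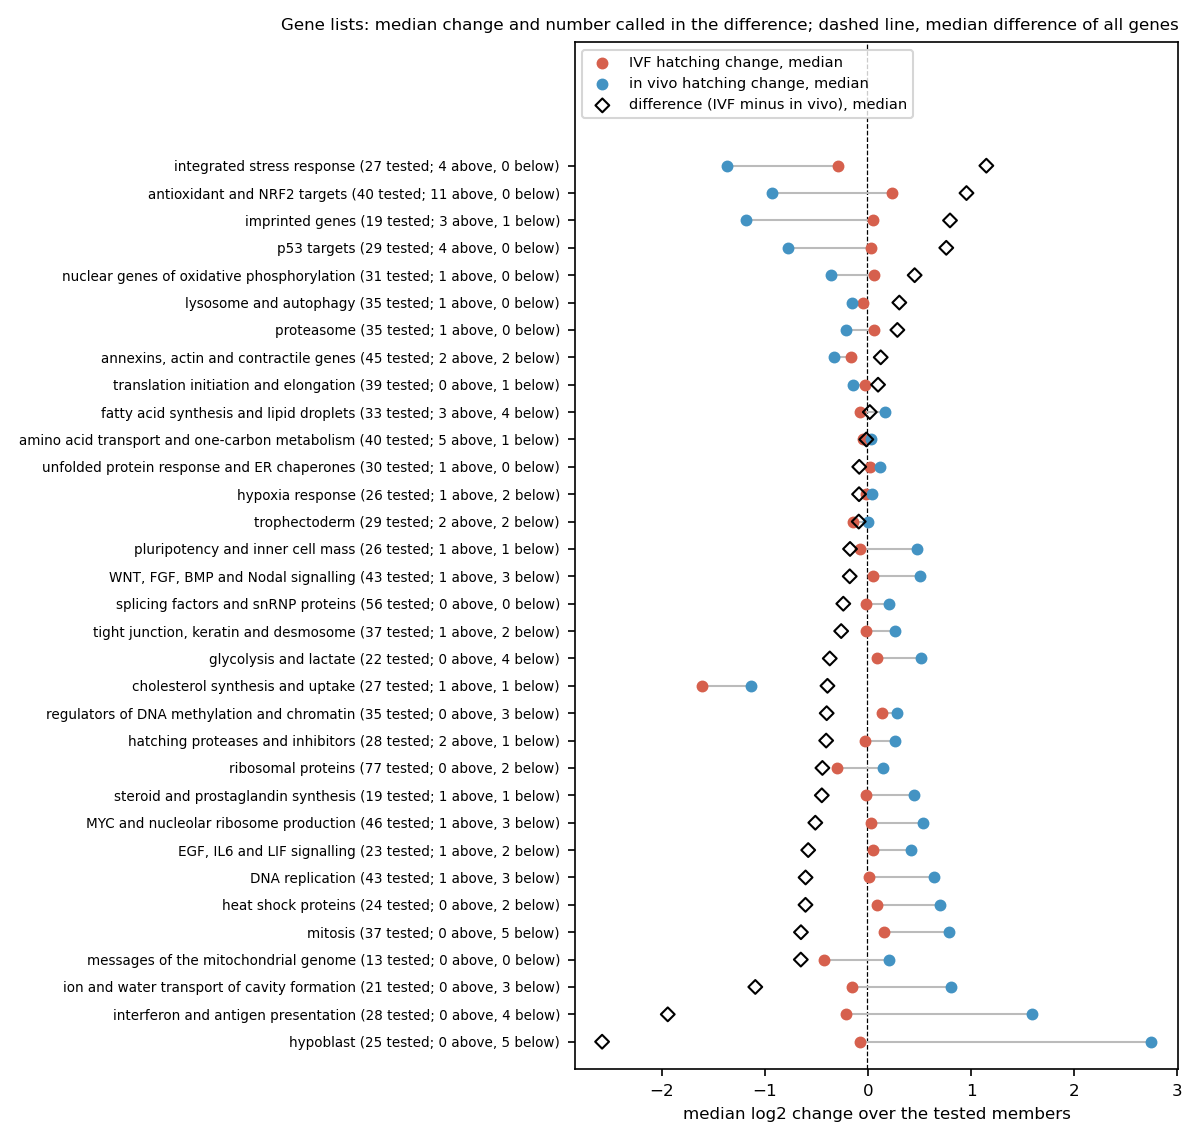
Each row is 1 of 33 gene lists, with the median log2 hatching change of its tested members in IVF (red) and in vivo embryos (blue) and the median difference (diamonds); the numbers give members tested and called above and below 0. Hypoblast genes have the lowest median difference (-2.58) and integrated stress response genes the highest (1.15), and cholesterol genes have both changes below 0.

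Of the 2228 genes called in in vivo hatching, 723 were also called in the difference (32.5%) and 1505 were not. Among those 1505, the IVF estimate had the same sign as the in vivo one in 1055. The median size of the in vivo change was 2.28 log2 units in the 723 and 1.499 in the 1505.

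The call of a single gene often needs all 10 libraries. Without in vivo hatched library 2, which was the farther from the in vivo blastocysts in 490 of the 732 genes (66.9%, against 59.7% of all genes), 367 genes were called, and without in vivo blastocyst 1 363. Leaving out 1 IVF library gave 333 to 453 calls, and with the 3 IVF 4-cell libraries in the fit only MGMT remained called. All 732 kept their sign in each of these fits. They were chosen for their difference in these libraries, and each fit reuses most of them, so a kept sign is no separate support.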

How the data were processed

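Gene counts were those the authors deposited for 13 libraries of pooled embryos, per the labels poly(A) RNA read as paired ends; 10 libraries were used. Named in the submitters' processing notes, without roles, are RSEM, StringTie 1.3.1, HISAT2, Bowtie2, fastp 0.18.0 and the build Sscrofa11.1. The sources used here do not say how strand and shared reads were handled. The deposited table also has 26 columns of FPKM and TPM, which were not used. One in vivo hatched count column has no number. Of 28232 genes, 28208 matched RefSeq (Sscrofa11.1 names and coordinates). The 24 entries without a symbol are mitochondrial RNAs and stayed in the fit.

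The counts were fitted in edgeR 4.0.16 (R 4.3.3; filterByExpr, TMM factors, quasi-likelihood test, 4 groups, no block), and the contrast was (IVF hatched minus IVF unhatched) minus (in vivo hatched minus in vivo unhatched), tested two-sided. Every adjusted p is Benjamini-Hochberg over the genes tested in its own fit, 15528 in the main fit, and a call is an adjusted p under 0.05. Fits with other sets of libraries were filtered and adjusted anew, with 15295 to 18515 genes tested. A log2 value is given ± SE. CPM were scaled by the TMM-adjusted library size. Where a group had 0 counts, the fold is a bound against a floor of 3 counts per library, which covers counting error only. Alternatives used DESeq2 1.42.0, limma 3.58.1 with voom, other scalings, filters and libraries.

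The contrast and the gene lists were chosen with earlier results of these data known, so list counts and medians are descriptions. Of 1259 list genes, 67 were not matched. Named were the 12 largest called differences on each side and the 3 smallest p of each class of calls by origin. Both were taken from genes of at least 5 CPM in the highest group. Also named were the 2 smallest p of each list (1 where 1 was called), with no CPM minimum, and 10 cell-lineage and chaperone genes called or not. The other called list members and the genes called in IVF hatching were named after their values were seen. Some genes that the rule chose are not reported here. No sequences are printed.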

Additional observations from a re-analysis of the deposited data

Results flagged for a closer look

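The hatching change differed between IVF and in vivo embryos in 433 genes above 0 and 299 below 0, by edgeR's test of the difference itself. The genes taken by the naming rule that passed that test are given here with their log2 difference, IVF change minus in vivo change; called genes that the text gives only as further list members are not repeated. Among them, the largest above 0 were ACTA1 (7.70), SLC7A11 (6.98), PKD2 (6.44), CASQ2 (5.99), ABLIM1 (5.74), TMEM40 (5.32), IL6 (5.25), TBC1D16 (5.15), N4BP2L1 (4.51) and PHGDH (4.47). These were followed by MGMT (4.41), SLC22A18 (4.05), GSTA4 (3.58), CDKN1A (3.04), MGST1 (2.85), TCF7L1 (2.44), DPPA5 (2.42), TYMS (2.40) and EGLN3 (2.32). The smallest above 0 among them were MSX2 (2.12), SDF2L1 (1.94), PHLDA3 (1.93), ACADVL (1.93), TJP3 (1.70), PSMD11 (1.61), SC5D (1.40), SDHB (1.38) and CNDP1 (1.28).

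Below 0, the smallest in size among the genes of that rule were RPL17 (-1.45), CCNA2 (-1.54), SLC2A1 (-1.55), RPL35A (-1.64), BAG3 (-1.73), PKM (-1.75), MCM4 (-1.75), CLDN6 (-1.78), EIF4G2 (-1.90) and PLK1 (-2.09). Next in size were DNAJB1 (-2.23), NAT10 (-2.24), RAB34 (-2.50), GATA4 (-2.58), EREG (-2.71), HK1 (-2.72), KAT2A (-2.77), TMPRSS2 (-2.79), NCL (-2.83) and PSMB10 (-3.39). Larger differences were those of SERPINH1 (-3.88), SLC12A2 (-3.90), SOX17 (-4.54), HSD17B1 (-4.78), DNMT3B (-5.13), COL4A2 (-5.99), VIM (-6.59), SCNN1B (-6.77) and RNASE1 (-7.40). The largest of them were SLC39A8 (-7.41), ASCL2 (-8.00), BMP2 (-8.11), KCNE3 (-8.16), FLRT3 (-9.20) and SRPK3 (-9.66).

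For genes with a group at 0 counts, the in vivo change is a bound. In vivo hatched blastocysts were lower than in vivo blastocysts for PAG6 (at least 111-fold), CYP19A3 (at least 82.4-fold), LPIN1 (at least 54.8-fold), TMPRSS13 (at least 49.6-fold), ADAMTS8 (at least 33.1-fold), ACPP (at least 8.05-fold) and C1H15orf52 (at least 11.3-fold). They were higher for IFIT1 (at least 47.3-fold), SOX21 (at least 65.6-fold), ENTPD1 (at least 65.9-fold) and IFITM3 (at least 86.3-fold). Some bounds rest on 1 library. Without in vivo blastocyst 2 they were 16.1-fold for PAG6, 26.6-fold for CYP19A3, 28.7-fold for TMPRSS13 and 4.55-fold for ACPP, and without in vivo hatched 2 they were 6.70-fold for IFITM3 and 28.6-fold for ENTPD1. JAM3 averaged 11.5 CPM in in vivo hatched blastocysts and was at 0 in IVF hatched blastocysts.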

How the results depend on the processing

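The 732 called genes kept the sign of their difference in every alternative that tested them (594 were tested at a mean of at least 5 CPM). As they were chosen by that difference and the alternatives reuse the same libraries, a kept sign is no separate support. The counts of calls changed more. In order, genes above 0, genes below 0, IVF hatching calls and in vivo hatching calls were 433, 299, 7 and 2228; DESeq2 gave 989, 890, 51 and 3562; no count filter gave 947, 908 and 162 for the first 3; and the IVF 4-cell libraries in the fit gave 1, 0, 0 and 101. At a mean of at least 5 CPM, 11 genes were called in IVF hatching. Of called genes, 52.6% lay above 0 with DESeq2, 51.1% with no filter and 47.8% without in vivo blastocyst 2, which also moved the median difference of all genes to -0.21. Leaving out 1 library gave 195 to 527 genes above 0, 127 to 506 below 0, 4 to 7 in IVF hatching and 1064 to 2153 in in vivo hatching; an in vivo group left with 1 library was assumed to vary like the others. The lowest in vivo counts came without in vivo blastocyst 1 (1064) and without in vivo hatched library 2 (1086). With RLE size factors, voom, robust spread or mitochondrial genes out of the library size, 737, 556, 860 and 731 genes were called. The cause of these changes was not tested.

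Deviations of same-numbered libraries from their group means correlated at -0.041, -0.014 and -0.003 in IVF and 0.017 in in vivo embryos. In an in vivo group of 2 libraries the deviations are exact opposites, so either pairing gives a correlation of the same size. These values cannot show whether same-numbered libraries were collected together. With the replicate number as a block, which leaves out the unnumbered library, 189 genes lay above 0, 158 below 0 and 1146 were called in in vivo hatching; 248 of the 347 were among the 732.

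Some differences that the main fit did not call changed sign. CDX2 was 0.037 with the replicate block, and with 1 library left out it ran between -1.03 and 0.047, the highest without the unnumbered in vivo hatched library. HSPA5 ran between -0.14 and 0.72, below 0 without IVF hatched 2 (-0.14), in vivo hatched 2 (-0.13) or in vivo blastocyst 1 (-0.06). GATA6 ran between -0.73 and 0.14 and PDGFRA between -3.25 and 0.094, both highest without in vivo hatched library 2. With all 10 libraries, PDGFRA was called by DESeq2 (adjusted p = 0.0459) and by edgeR with no count filter (adjusted p = 3.28e-05). Of the 77 calls the naming rule chose, 37 held without each single library.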

Other observations

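Groups of genes chosen after the values were seen, so described with no test, showed energy metabolism and muscle genes among those above 0. Of 24 tested genes of branched-chain amino acid and ketone breakdown, 9 were called above 0 and 0 below 0 (median difference 1.07), with 15 called lower in in vivo hatching and 0 called in IVF hatching. Of 19 citric acid cycle genes, 7 were called above 0 and 0 below 0 (median 0.65). Of 24 genes of fatty acid breakdown, 9 were called above 0 and 0 below 0 (median 0.60). Genes of the sarcomere and smooth muscle had 6 of 20 called above 0 and 0 below 0 (median 1.34), among them CASQ2 and ACTA1. Over all genes, 2.79% were called above 0, 1.93% below 0 and 7.39% lower in in vivo hatching. The median difference of all genes was -0.005. Some genes of these groups are also in the lists described above.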
